A study of Homo sapiens with 4 samples.

Results

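First-exon CDS peaks are the m6A-immunoprecipitation peaks whose summit, the point of highest signal, lay in coding sequence within the first exon of a transcript. They were found on the longest-CDS GENCODE transcript of each protein-coding gene (hg38), among transcripts of 2 or more exons and over 200 nt of transcript away from the stop codon. Replicate 1 held 1088 such peaks among 24607, in 1017 genes, and replicate 2 held 515 among 19318, in 478 genes, which made 1603 of 43925 peaks over both lists. The peaks came from OE-19, an established human cell line of adenocarcinoma of the esophagogastric junction, grown without a named treatment or genetic change. The study profiled 2 m6A immunoprecipitates (anti-m6A) and 2 inputs (no antibody), and the peak lists of the 2 immunoprecipitates were analysed here. The study calls its replicates biological, but neither its text nor the labels say that they came from separate cultures. Each list is therefore 1 library, and its tests cover the spread over peaks or genes and not the spread between cultures. The lists hold positions, fold enrichments (signal at the summit over the local background estimated by the peak caller) and p- and q-values but no read numbers, so depth is unknown, expression and cell-type markers could not be checked, and weaker methylation cannot be told apart from fewer transcripts.

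N6-methyladenosine (m6A) is written into mRNA by the METTL3-METTL14 complex, mostly at adenosines in the DRACH consensus, of which GGAC is the best-known core. In mRNA it is known to gather around stop codons and in long internal exons, while exon junction complexes are known to keep it away from splice junctions. A first exon has a splice junction on its downstream side alone and carries the cap on the other side, where the cap-adjacent m6Am is also recognised by m6A antibodies. The antibody peaks do not separate the marks, and their part in these peaks was not tested.

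The transcript around the replicate 1 summits of the strongest peaks found in both lists is shown first. It spans 50 nt to each side of the summit, as read from the reference genome. These stretches show how densely GGAC can sit in first-exon coding sequence and that strong summits also occur without GGAC. The windows are NALF2 (chrX:69505881-69505981, plus strand), FUT6 (chr19:5831661-5831761, minus strand), ZCCHC2 (chr18:62524035-62524135, plus strand), CNNM2 (chr10:102919890-102919990, plus strand) and CELSR1 (chr22:46535344-46535444, minus strand), all within first-exon coding sequence in hg38. Capitals mark GGAC, read on the gene's strand.
NALF2: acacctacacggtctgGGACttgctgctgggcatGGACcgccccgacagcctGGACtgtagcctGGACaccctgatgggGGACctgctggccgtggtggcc
FUT6: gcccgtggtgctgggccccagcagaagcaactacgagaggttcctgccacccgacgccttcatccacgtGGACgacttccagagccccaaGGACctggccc
ZCCHC2: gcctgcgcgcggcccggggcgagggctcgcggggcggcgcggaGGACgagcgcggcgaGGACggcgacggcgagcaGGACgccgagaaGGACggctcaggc
CNNM2: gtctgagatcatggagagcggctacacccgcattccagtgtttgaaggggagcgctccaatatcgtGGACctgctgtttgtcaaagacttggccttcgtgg
CELSR1: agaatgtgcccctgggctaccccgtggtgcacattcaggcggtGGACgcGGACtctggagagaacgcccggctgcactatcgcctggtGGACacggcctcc
NALF2 held 5 GGAC in this window, ZCCHC2 held 4, CELSR1 held 3, FUT6 held 2 and CNNM2 held 1. In CELSR1 the GGAC adenosines nearest the summit lay 5 nt before it and 1 nt after it. The first of these GGAC was followed by G and so lay outside the DRACH consensus. The same held for all 4 GGAC of ZCCHC2 and for the first of FUT6. The strongest peaks without GGAC in the replicate 1 window were COL18A1 (chr21:45455857-45455957, plus strand) and WDR81 (chr17:1728235-1728335, plus strand). Both peaks had GGAC within 50 nt of the replicate 2 summit. The replicate 1 windows of both, shown here, hold other DRACH sites, among them TGACA.
COL18A1: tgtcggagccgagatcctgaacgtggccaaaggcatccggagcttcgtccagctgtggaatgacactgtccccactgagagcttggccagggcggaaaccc
WDR81: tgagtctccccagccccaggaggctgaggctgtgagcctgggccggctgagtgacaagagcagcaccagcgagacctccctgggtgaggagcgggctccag

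NALF2, an auxiliary subunit of the NALCN sodium leak channel, held the strongest first-exon CDS peak, at 26.1-fold enrichment in replicate 1 and 11.7-fold in replicate 2. The 2 summits lay 648 and 641 nt after the start codon in a first exon of 1818 nt. Its relative NALF1 reached 14.2-fold and 10.5-fold, 716 and 737 nt after the start codon, with no GGAC within 50 nt of either summit. COL18A1, which encodes the collagen from which endostatin is cut, was the strongest in replicate 2, at 16.4-fold against 15.4-fold in replicate 1, and GGAC lay within 50 nt of the replicate 2 summit only. FUT6, a fucosyltransferase of Lewis antigen synthesis, reached 23.8-fold and 9.44-fold, and its close relatives FUT3 and FUT5 could share reads with it, so the gene is uncertain. WDR81, an endosomal WD-repeat protein, reached 23.0-fold and 9.52-fold, but its summits lay 1264 bp apart, at 3325 and 2061 nt after the start codon. ZCCHC2 reached 16.2-fold and 13.0-fold, and CNNM2, a protein of magnesium transport, reached 14.1-fold and 12.6-fold.

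The seven-pass cadherins of planar cell polarity all carried a peak in both lists within their first exons of 3851 to 4000 nt. CELSR3 reached 12.3-fold and 14.1-fold, 1653 and 1630 nt after the start codon. CELSR1 reached 17.5-fold and 9.43-fold, 1776 and 1793 nt after the start codon. CELSR2 reached 11.8-fold and 7.31-fold, 3138 and 3124 nt after the start codon and 171 and 185 nt before the first splice site, so it was placed at the far end of its exon. ARHGEF17, a guanine nucleotide exchange factor, reached 12.3-fold and 15.1-fold, with neither summit near GGAC, as in CELSR3 and in this peak of CELSR2. FANCM, the DNA translocase of the Fanconi anaemia pathway, reached 16.2-fold and 8.88-fold in a first exon of 610 nt. ENSG00000260272 (20.4-fold and 8.05-fold) completed the 12 strongest genes, but its summits also lay in an exon of another gene, so the gene is uncertain. In 9 of these 12 genes the enrichment was higher in replicate 1, and the members of COL18A1, ARHGEF17 and CELSR3 were higher in replicate 2. The placement depended on the transcript for some of them. On the Ensembl canonical transcript 10 of the 12 held a member in both lists, and with the peak midpoint in place of the summit 11 did.

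First-exon coding sequence held more summits per nt than internal-exon coding sequence. It made up 7.10% of the coding nt that the rule could reach in multi-exon genes but held 13.6% of the coding summits in replicate 1 and 10.1% in replicate 2. In genes with a peak in that list, the density was 1149 summits per Mb in first exons, 455 in internal exons and 843 in last exons of replicate 1. In replicate 2 it was 658.5, 328 and 802, so first exons were denser than internal exons in both lists, while first and last exons changed order. Of 11640 genes with reachable first-exon coding sequence, 1071 held a member in either list (9.20%) and 424 in both (3.64%). The share of genes with a member in replicate 1 went from 4.82% for first exons of 100 to 200 nt to 41.1% for 197 genes with first exons of 1600 nt or more. In replicate 2 it went from 1.02% to 36.5% over the same lengths. These densities are descriptions, since longer exons offer more sequence and expression was not measured.

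Most genes held a single member, with 955 of 1017 genes in replicate 1 and 443 of 478 in replicate 2. TSC22D1, a leucine zipper protein with 2912 coding nt in its first exon, held 4 in replicate 1 (up to 8.44-fold) and 3 in replicate 2 (up to 10.3-fold). TAF4, a subunit of the basal transcription factor TFIID, held 3 in replicate 1, from 2.86- to 9.95-fold. The other genes with 3 in replicate 1 were PDE12, LRRC37A2, PCDHA12, PCDHA5, PCDHGA6 and PCDHGB2, of which the protocadherins and LRRC37A2 belong to families of close copies. Genes with a member often held another peak elsewhere, 76.5% of them in replicate 1 and 72.8% in replicate 2. A peak within 200 nt of the stop codon was present in 45.2% and 38.3% of genes with a member, against 52.1% of 4602 and 49.0% of 3551 genes with any peak on the transcript, and that difference was not tested.

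Summits lay earlier in the coding sequence in replicate 1 than in replicate 2, a difference that was not tested. The median distance to the start codon was 118 nt in replicate 1 (quartiles 57 and 284 nt, n = 1081) and 182.5 nt in replicate 2 (quartiles 88.8 and 450 nt, n = 512), leaving out 7 and 3 peaks on transcripts annotated without a complete start. The summit lay in the first 100 nt of the coding sequence in 43.2% of members of replicate 1 and 30.5% of replicate 2, and 50.8% of replicate 1 peaks covered the start codon. By the replicate 1 summit, the farthest among genes with a pair in both lists was WDR81, followed by CELSR2 and by IRS1, an insulin receptor substrate, at 3073 and 2956 nt. In replicate 2 CELSR2 and IRS1 lay farther than WDR81. Per Mb of reachable first-exon coding sequence in genes with a peak, the replicate 1 density was 1103 summits in the first 50 nt, 1528 from 50 to 100 nt, 1341 from 100 to 150 nt and 998 from 400 to 600 nt. In replicate 2 it was 372, 797, 827 and 823, so the first 50 nt were the sparsest of these stretches there and no excess near the start codon was seen.

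**Figure D1:**
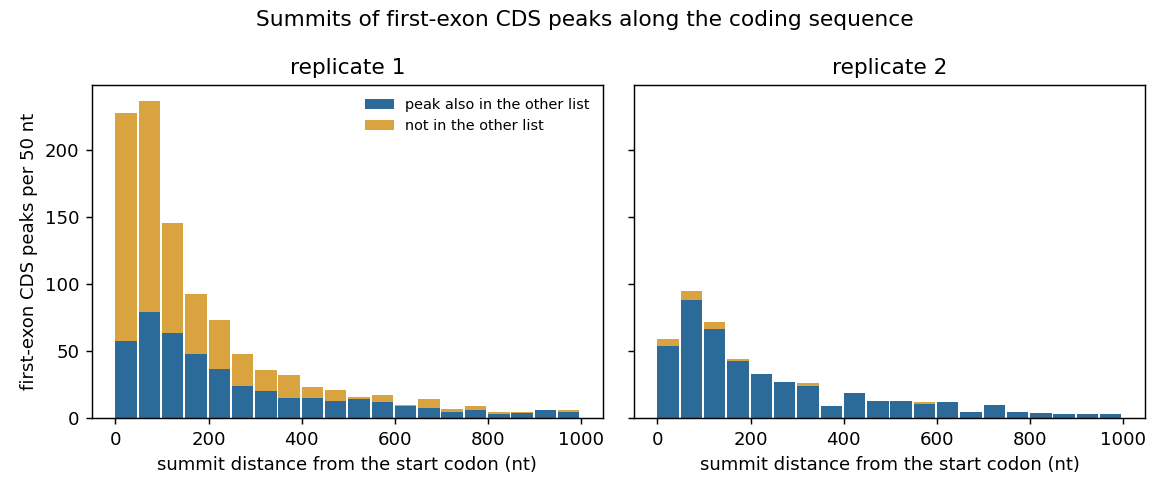
Members per 50 nt of coding sequence (y axis, peaks) against summit distance from the start codon (x axis, nt) in replicate 1 (left) and replicate 2 (right), with stacked bars split by whether the peak overlaps a peak of the other list. In replicate 1, of the 231 members in the first 50 nt, 60 were found in the other list, while replicate 2 held 60 members there, 55 of them shared.

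The limits of the rule cut through continuous neighbourhoods. In replicate 1, 231 members had summits in the first 50 nt of the coding sequence (median 4.28-fold) and 250 peaks just outside lay in the last 50 nt before the start codon of the same kind of exon (4.18-fold). In replicate 2 these were 60 (3.71-fold) and 69 (4.10-fold). At the stop codon limit, 30 members of replicate 1 lay 200 to 300 nt before it (4.92-fold) and 9 peaks just outside lay 100 to 200 nt before it (5.65-fold), and replicate 2 held 13 (3.83-fold) and 4 (4.68-fold).

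The members of replicate 1 were found in the other list less often than internal-exon CDS peaks, and the shared share went with exon length. Of the members, 44.8% in replicate 1 (487 of 1088, 95% Wilson interval 41.8 to 47.7%) and 95.5% in replicate 2 (492 of 515, 93.4 to 97.0%) overlapped a peak of the other list by 1 bp or more, beside 56.7% and 74.6% of all peaks of these lists. Internal-exon CDS peaks were shared in 56.9% of 5361 and 94.9% of 3216. The difference was -12.2 percentage points in replicate 1 (95% Newcombe interval -15.4 to -8.90, Fisher's exact test, two-sided, p = 2.80e-13, adjusted p = 1.68e-12 over the 6 Fisher tests). In replicate 2 it was 0.665 points (-1.60 to 2.35, Fisher's exact test, adjusted p = 0.588), so no difference was detected there. In exons under 400 nt, 23.1% of first-exon and 29.1% of internal-exon peaks of replicate 1 were shared, and in exons of 400 nt or more 60.8% and 80.6% were. The difference had the same sign in both length classes of replicate 1 and was not tested within them.

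In replicate 1 the shared share was 18.7% of 166 members in first exons of 100 to 200 nt, 25.4% of 284 from 200 to 400 nt and 44.2% of 301 from 400 to 800 nt. It was 75.2% of 210 from 800 to 1600 nt and 78.1% of 114 beyond. In replicate 2 it stayed between 82.9% and 98.8% from 100 nt upward. Many unshared members of replicate 1 lay near the annotated transcript start, where 42.9% of 601 had the summit within 150 nt, against 14.6% of 487 shared members. Summits between 100 and 150 nt from that start numbered 262 in replicate 1 and 64 in replicate 2. Replicate 1 called peaks as short as 123 bp and replicate 2 as short as 141 bp, and the unshared members of replicate 1 had a median width of 181 bp against 475 bp for the shared ones. The part of calling and of annotated starts in this was not tested.

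**Figure D2:**
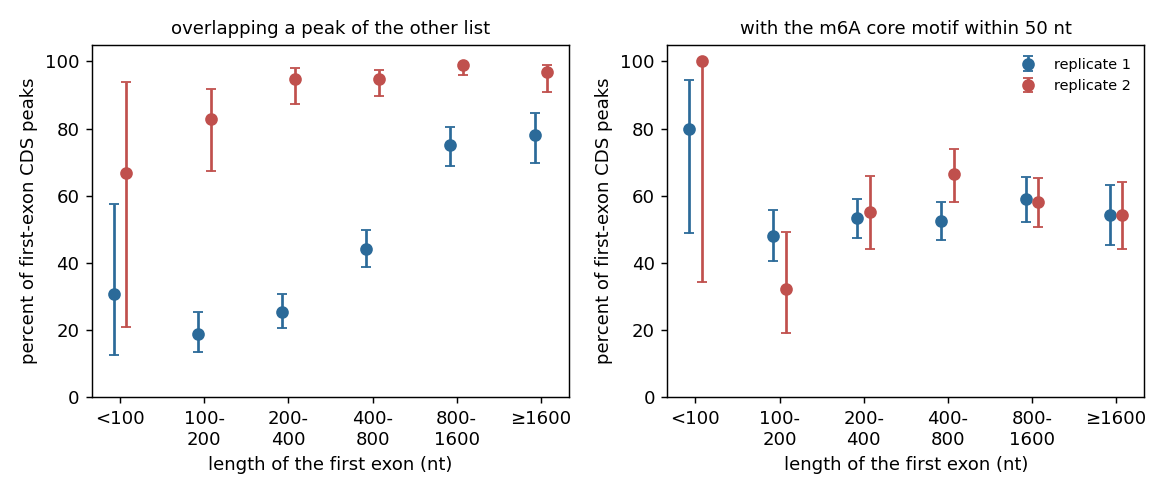
Percent of members (y axes) overlapping a peak of the other list (left) and with the m6A core motif within 50 nt of the summit (right), against the length of the first exon (x axis, nt). Points are replicate 1 (blue) and replicate 2 (red) with 95% Wilson intervals, and the replicate 1 shared share goes from 18.7% at 100 to 200 nt to 78.1% at 1600 nt or more.

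The strongest members that overlapped no peak of the other list were SART3, MLXIPL and RABIF in replicate 1. SART3, a splicing factor of U4/U6 recycling, reached 13.8-fold, 113 nt after the start codon. MLXIPL, the carbohydrate-responsive transcription factor ChREBP, reached 12.7-fold, and RABIF reached 12.5-fold, 12 nt before its first splice site. In replicate 2 they were weaker, with CILP2 at 7.42-fold, PCDHGB3 at 6.05-fold and the kinase DSTYK at 5.62-fold.

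Where both lists called a peak, they placed it alike but with more enrichment in replicate 1. There were 441 pairs of members that were each other's largest overlap, in 415 genes. Their summits lay a median of 23 bp apart, and 74.4% lay within 50 bp. The fold enrichment was higher in replicate 1 in 83.9% of pairs, with a median log2 ratio of 0.47, beside 78.9% and 0.42 for 2850 internal-exon pairs. Over the 441 pairs Pearson's r of log2 fold enrichment was 0.731 and Spearman's coefficient 0.724, as a description over peaks that share 2 libraries. A further 20 pairs had a replicate 1 member whose replicate 2 summit fell in the 5' UTR, and 29 had the opposite order.

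**Figure D3:**
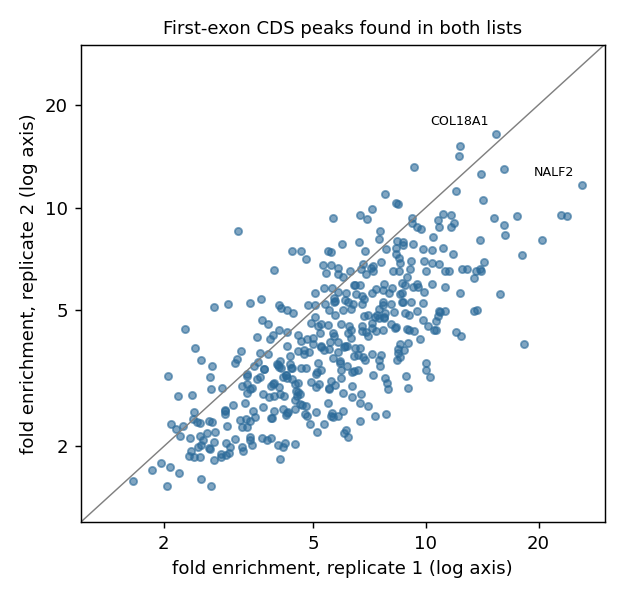
Fold enrichment in replicate 1 (x axis, log scale) and replicate 2 (y axis, log scale) of the 441 member pairs, with the line of equal values in grey. NALF2 (26.1 and 11.7) and COL18A1 (15.4 and 16.4) are named, and 83.9% of pairs lie below the line.

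Over all genes the fold enrichment of members was close to that of internal-exon peaks in replicate 1 and lower in replicate 2. The order of the medians changed with exon length. Within genes the fold enrichment of members was lower under most settings, though neither replicate kept its call under all of them. The median was 4.65-fold in replicate 1 and 3.98-fold in replicate 2, beside 4.75-fold and 4.51-fold for internal-exon CDS peaks. In exons under 400 nt, members and internal-exon peaks had medians of 4.23-fold and 3.58-fold in replicate 1 and 3.63-fold and 3.36-fold in replicate 2. In exons of 400 nt or more they had 5.06-fold and 5.93-fold, and 4.11-fold and 4.91-fold. The differences between these medians were not tested. In 431 genes of replicate 1 with another CDS peak, the strongest member was the higher in 191 and the lower in 240 (median log2 difference -0.15, exact sign test, two-sided, p = 0.0207). In 176 genes of replicate 2 it was the higher in 60 and the lower in 116 (median -0.25, exact sign test, p = 2.93e-05). The strongest of several peaks was taken, which favours the side with more peaks, and in genes with 1 peak of each kind the medians were -0.06 over 237 genes (exact p = 0.697) in replicate 1 and -0.24 (exact p = 0.000396) in replicate 2. Among peaks of 5-fold or more the replicate 2 call was lost (median -0.17 over 36 genes, exact sign test, p = 0.065). Replicate 1 kept its call there (median -0.31 over 139 genes, exact sign test, p = 0.00119).

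Summits were sparse in the last 100 nt before the first splice site of long first exons. In first exons of 400 to 800 nt, replicate 1 had 503 summits per Mb of reachable sequence within 100 nt of the splice site (95% Poisson interval 365 to 675) and 1672 from 100 to 200 nt (1374 to 2015). In first exons of 800 to 1600 nt these were 326 (163 to 583) and 1393 (1008 to 1876). In replicate 2 they were 312 (195 to 472) and 825 (600 to 1108) for exons of 400 to 800 nt, and 263 (114 to 518) and 1034 (693 to 1485) for 800 to 1600 nt. Beyond 1600 nt, replicate 1 had 2 summits in the last 100 nt and 10 in the 100 nt before, and replicate 2 had 0 and 11, where a count of 0 allows up to 402 summits per Mb (exact Poisson interval). The intervals of the last 100 nt and of the next 100 nt did not overlap in the 4 comparisons of exons of 400 to 1600 nt. The density from 200 nt on lay between 724 and 1390 in replicate 1 and between 660 and 1059 in replicate 2.

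**Figure D4:**
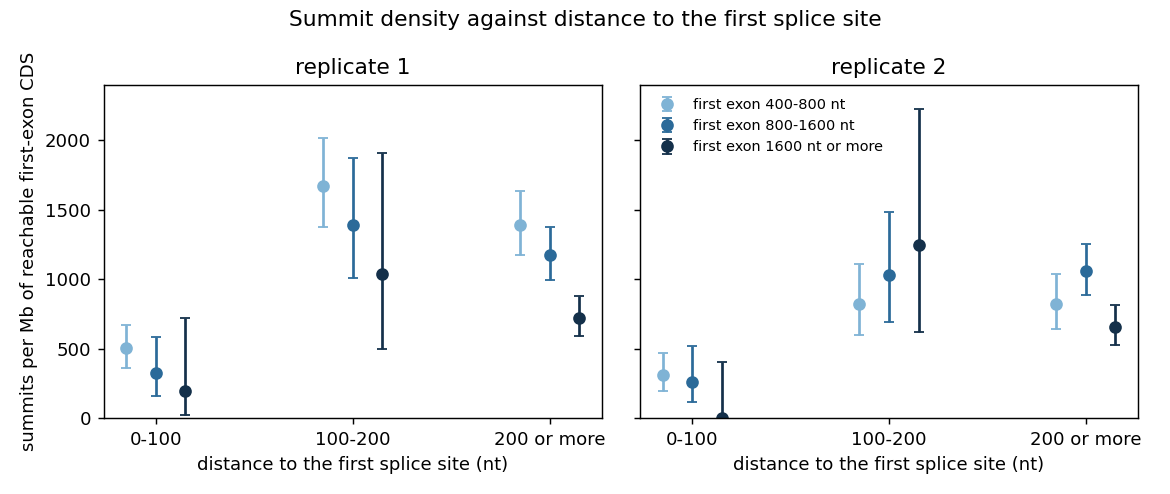
Summits per Mb of reachable first-exon coding sequence (y axis) by distance to the first splice site (x axis, nt) for 3 classes of first-exon length in replicate 1 (left) and replicate 2 (right), with 95% Poisson intervals. The last 100 nt hold 503, 326 and 199 in replicate 1, below the 1672, 1393 and 1038 of the next 100 nt.

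Over all lengths the comparison depended on how exons were weighed. Within 100 nt of the first splice site lay 30.6% of members in replicate 1 (333 of 1088, Wilson interval 27.9 to 33.4%) and 19.6% in replicate 2 (n = 515, 16.4 to 23.3%). These 100 nt held 20.6% and 14.3% of the reachable nt of the same exons, which gave ratios of 1.49 and 1.38. When each member counted its own exon once, so that a long exon counted no more than a short one, the expected shares were 40.9% and 28.4%, and the ratios turned to 0.748 and 0.690. The direction over all lengths is therefore set by the weighing, and the densities within a length class are given above for that reason. Peaks are wider than this distance, and 47.8% of replicate 1 members ran past the first splice site on the genome.

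The GGAC core motif was more frequent at the members' summits than 300 nt farther along the same transcript, in more GC-rich sequence. In replicate 1, 675 members had such a comparison window. Its centre lay outside every peak of that list, although its edges could reach into a peak. GGAC lay within 50 nt of the summit in 51.0% of these members and in 37.8% of the windows (217 members with it at the summit only, 128 in the window only, exact McNemar test, two-sided, p = 1.91e-06). In replicate 2 the shares were 55.4% and 41.6% of 303 (103 against 61, exact McNemar test, p = 0.0013). GC content was 68.5% at the summit and 54.5% downstream in replicate 1, and 67.4% and 56.6% in replicate 2. Rearranging the letters of GGAC gave 11 further words, whose share differed between summit and window by an average of 10.6 points in replicate 1 and 7.77 points in replicate 2. GGAC itself differed by 13.2 and 13.9 points, and 4 and 3 of the rearranged words differed by more. The difference was thus not particular to GGAC among words of its composition. GGACT, the longer core, was found at 15.1% of summits and 9.33% of windows in replicate 1 and at 19.1% and 9.24% in replicate 2. The broader DRACH did not go the same way. It lay in 83.7% of the windows of replicate 1 and 80.2% of those of replicate 2. At summits it lay in 71.4% of 1078 and 78.4% of 513 members, which include members without a comparison window, and this was not tested.

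Among members of replicate 1, those found in both lists carried the motif more often, though the call did not hold under all settings. GGAC lay within 50 nt of the summit in 58.7% of 484 shared and 49.8% of 594 unshared members, a difference of 8.85 points (Newcombe interval 2.87 to 14.7, Fisher's exact test, adjusted p = 0.00784). The call was lost at 5-fold or more, with the peak midpoint and with a 25 nt window (Fisher's exact test, adjusted p = 0.295, 0.163 and 0.25). GGACT lay in 23.1% and 10.6%, and GC content was 67.2% and 69.3%. In replicate 2 the shares of GGAC were 58.5% of 491 and 40.9% of 22, and the difference was not detectable with so few unshared members (17.5 points, -3.28 to 35.7, Fisher's exact test, adjusted p = 0.149). In first exons of 400 nt or more, replicate 1 had GGAC at 60.8% of 380 shared and 46.1% of 245 unshared members, and in shorter ones at 51.0% of 104 and 52.4% of 349. The difference in sign between the length classes was not tested.

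GGAC was somewhat more frequent at members than at internal-exon CDS peaks, but the call did not hold under several settings and the order varied with GC content. It lay at 53.8% of 1078 members and 50.2% of 5361 internal-exon peaks in replicate 1 (difference 3.63 points, 0.356 to 6.87, Fisher's exact test, adjusted p = 0.0451). In replicate 2 it lay at 57.7% of 513 and 50.7% of 3216 (6.95 points, 2.30 to 11.5, Fisher's exact test, adjusted p = 0.00784). The replicate 1 call was lost at 5-fold or more, at q of 1e-05 or less, on the canonical transcript and with a 25 nt window, where adjusted p by Fisher's exact test lay between 0.054 and 0.295. The replicate 2 call was lost at 5-fold or more (0.266) and with the 25 nt window (0.166). The broader consensus DRACH, not tested, went the other way, at 71.4% and 87.0% in replicate 1 and at 78.4% and 90.5% in replicate 2. Members were richer in GC, with means of 68.4% and 67.3% in the replicates, than internal-exon peaks, with 56.6% and 54.3%. In windows under 50% GC, GGAC lay at 32.6% of members and 39.7% of internal-exon peaks of replicate 1 and at 41.4% and 39.7% in replicate 2, and at 50 to 60% GC at 51.7% and 54.4% and at 53.0% and 54.2%. In windows of 60 to 70% GC, it lay at 57.2% of 381 members and 55.5% of 1807 internal-exon peaks of replicate 1, and at 60.7% of 173 and 60.2% of 891 in replicate 2. At 70% GC or more the shares were 53.7% and 51.9% in replicate 1 and 59.2% and 59.3% in replicate 2. Windows of the same length tiling all reachable first-exon coding sequence held GGAC in 45.5%, GGACT in 10.9% and DRACH in 68.5% of 15279, at 65.0% GC. In 60 to 70% GC 50.6% of these tiles held GGAC.

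**Figure D5:**
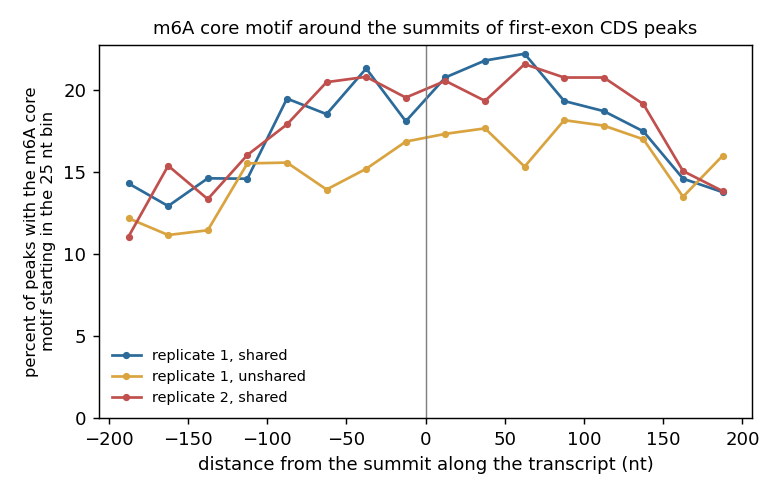
Percent of members with the m6A core motif starting in each 25 nt bin (y axis) against distance from the summit along the transcript (x axis, nt, upstream negative), for shared members of replicate 1 (487), unshared members of replicate 1 (601) and shared members of replicate 2 (492). Bins farther upstream rest on fewer peaks, with 378, 263 and 380 at 200 to 175 nt before the summit. The shared members of replicate 1 go from 14.3% of 378 there to 22.2% of 487 at 50 to 75 nt after the summit.

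The nearest GGAC lay a median of 44 nt from the summit in replicate 1 (quartiles 17 and 89 nt) and 41 nt in replicate 2. In the coding frame, 70.3% of 788 GGAC around the replicate 1 summits began at the third codon position, so that GAC, an aspartate codon, was read in frame. The share was 73.5% of 423 in replicate 2 and 67.8% of 13241 in all reachable first-exon coding sequence. The frame of the motif at members was thus close to that of first exons in general.

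In the gene groups described here, 8.70 to 25% of genes with reachable sequence held a member in either list, beside 9.20% of all such genes. These shares also count genes without a peak. Of all 11640 such genes, 4678 had a peak and 1071 held a member in either list, so a group's share also follows how many of its genes had a peak. By group, 48 of 140 developmental factors, 30 of 41 KLF, SP, EGR and leucine zipper factors and 127 of 207 zinc finger proteins had a peak. Among 140 developmental transcription factors with reachable sequence, 24 held a member in either list and 14 in both, or 17.1% and 10.0%, beside 9.20% and 3.64% of all such genes. HOXB9 reached 8.35-fold and 7.33-fold with summits 27 and 29 nt after the start codon, and HOXB8 reached 8.96-fold and 4.003-fold. SIX5 reached 8.50-fold and 7.13-fold, but its summit also lay in an exon of another gene. Of 41 KLF, SP, EGR and leucine zipper factors, 30 of which had a peak, 7 and 4 held a member, or 17.1% and 9.76%. Among them were KLF9 at 9.49-fold and 5.97-fold and KLF13 at 4.09-fold and 1.84-fold. KLF7 reached 9.63-fold and 4.11-fold with summits 4 and 8 nt after the start codon. Zinc finger proteins, whose reachable sequence had a median of 30 nt against 100 nt for all genes, were at 8.70% and 2.42% of 207, with ZNF764 at 8.80-fold and 5.92-fold, ZNF622 at 9.03-fold and 4.85-fold and ZNF688 at 5.10-fold and 2.995-fold.

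Protocadherins, cadherin-superfamily adhesion proteins, had members in 12 of 48 in either list and 10 in both, or 25% and 20.8%. The shares of all genes with reachable sequence were 9.20% and 3.64%. Their reachable sequence had a median of 2420 nt against 100 nt for all genes, and 15 of the 48 had a peak. Of all genes with first exons of 1600 nt or more, 41.1% held a member in replicate 1 and 36.5% in replicate 2. In the alpha and gamma clusters each gene has its own long variable first exon. PCDHA4 reached 9.29-fold and 13.2-fold, PCDHGA6 reached 13.5-fold and 6.23-fold, and PCDHA12 reached 8.69-fold and 7.95-fold. Their near-identical copies could share reads, so single genes are uncertain. The receptor adaptors had 4 of 24 in both lists (16.7%), beside 3.64% of all genes with reachable sequence, and 13 of the 24 had a peak. Among them were IRS1 at 10.4-fold and 7.51-fold, IRS2 at 12.4-fold and 5.62-fold and SOCS7, a suppressor of cytokine signalling, at 6.03-fold and 6.28-fold. In replicate 1 the peaks over IRS1 and IRS2 were 4894 and 4592 bp wide, over first exons of 4832 and 4542 nt.

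Kinases, ubiquitin ligases and transporters also held members, beside 9.20% of all genes with reachable sequence in either list and 3.64% in both. The shares were 18.9% and 11.3% for the kinase and phosphatase group and 23.3% and 10.0% for the ubiquitin ligase group. Solute carriers, at 14.5% and 4.39%, were close to all genes in the share with a member in both lists. A peak of any kind lay in 35 of 53 genes of the kinase and phosphatase group. It lay in 83 of 150 of the ubiquitin ligase group and 98 of 228 solute carriers, beside 4678 of all 11640 genes. The group of MAP kinase cascade kinases and dual-specificity phosphatases held members in 10 of 53 genes and in 6 in both lists, with the mixed-lineage kinase MAP3K10 at 12.9-fold and 6.61-fold, the p38 kinase MAPK11 at 6.69-fold and 5.92-fold and MAP3K9 at 8.96-fold and 2.97-fold. Ubiquitin ligases and their adaptors held them in 35 of 150 (23.3%) and in 15 in both. Their strongest were RNF111 at 10.4-fold and 8.21-fold, NEDD4 at 7.80-fold and 10.98-fold, both with 37.6% GC around the summit and no GGAC, and the adaptor KLHL42 at 9.05-fold and 6.63-fold. Solute carriers held them in 33 of 228 and 10 in both, with SLC27A3, a fatty acid transport protein, at 14.0-fold and 6.53-fold, SLC22A23 at 10.8-fold and 4.82-fold and the acetyl-CoA transporter SLC33A1 at 6.2-fold and 5.31-fold. The summits of MAP3K9, KLHL42, SLC33A1 and PCDHA12 also lay in an exon of another gene.

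Chromatin regulators held members in 11 of 55 genes and in 4 in both lists, or 20% and 7.27%. The shares of all genes with reachable sequence were 9.20% and 3.64%. A peak of any kind lay in 39 of these 55 genes and in 4678 of all 11640. ARID1B, a subunit of SWI/SNF remodelling complexes, reached 18.0-fold and 7.25-fold, 324 and 334 nt after the start codon. BRD1 reached 7.69-fold and 5.19-fold, and the H3K4 methyltransferase KMT2B reached 5.24-fold and 3.93-fold. These counts are descriptions with no test of the groups, whose reachable length differed from 30 to 2420 nt at the median.

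Of 27 genes of the study's questions, G1-S regulators and m6A regulators, 18 had reachable first-exon coding sequence. Of these, 5 (27.8%) held a member in either list, beside 9.20% of all such genes. The 9.20% also counts genes without a peak: 4678 of the 11640 genes had one, and 1071 held a member. The other 13 of the 18, with no summit in that sequence, were CDC25A, E2F1, MYC, METTL3, METTL14, VIRMA, FTO, ALKBH5, IGF2BP1, IGF2BP2, YTHDF1, YTHDC1 and YTHDC2. Their absence says nothing of peaks elsewhere in these genes or of their expression. RBM15, an adaptor of the m6A writer complex, carried a peak of 2783 bp in replicate 1 (7.25-fold) and 2824 bp in replicate 2 (6.76-fold), across a first exon of 2946 nt. IGF2BP3, the m6A reader at the centre of the study, held a weak member in both, at 3.33-fold and 2.86-fold, 55 and 81 nt after the start codon and with GGAC near both summits. E2F3, a transcription factor of S-phase entry, held one at 3.49-fold and 3.43-fold. CCND1, or cyclin D1, and the checkpoint kinase WEE1 held one in replicate 1 only, at 2.10-fold and 3.15-fold, both 8 nt after the start codon, and both of these peaks overlapped a replicate 2 peak whose summit was placed elsewhere.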

How the data were processed

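The narrowPeak lists of the 2 m6A immunoprecipitates were analysed, 1 list per library. Per the submitters' processing notes, fastp, HISAT2 and MACS2 were used on hg38, whereas the published methods name TopHat2. Software releases, and whether the input served as the peak caller's control, are not given in the sources used here. The labels describe UV-fixed, lysed cells and the methods describe fragmented total RNA, which was not resolved. In the lists deposited by the authors, the fold enrichment is a ratio at the summit, p and q are given as −log10 values, and the display score derives from q. The lists hold no strand and no read numbers, although the library kit keeps strand.

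Summits were placed on the longest-CDS transcript of each of the protein-coding genes of GENCODE 44, and where genes overlapped, a placement that made the peak a member was preferred. Peaks were called shared from an overlap of 1 bp. Sequence was read from hg38 along the spliced transcript. Reachable sequence is first-exon coding sequence in which a summit would count as a member. Motifs were sought on the gene's strand: GGAC, GGACT and DRACH by name, where GGAC is part of GGACT and matches DRACH when A, C or T follows. Fisher's exact, exact McNemar and exact sign tests were two-sided (scipy 1.17.1, threshold 0.05), with Benjamini-Hochberg adjustment over the 6 Fisher tests. Intervals were 95% Wilson, Newcombe or exact Poisson intervals and cover counting error only. Peak placement and each test were tested on simulated data before use.

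Named genes were the 12 with the largest geometric mean enrichment of paired members, the 3 farthest from the start codon, up to 3 for each gene group (defined by symbol, with 1 group not reported here), the 3 strongest unshared members of each list, and members among the study's G1-S genes, MYC, CCND1 and m6A regulators. Genes with 3 or more members and CELSR1 to CELSR3 as a family were singled out after their values were seen. Members, lists and tests were chosen with earlier results of these data known. The alternatives tried were stricter enrichment and q limits, other placements, transcripts, overlaps, windows and exon weights.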

Additional observations from a re-analysis of the deposited data

How the results depend on the processing

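Of 138 recomputed values, 106 kept their direction and side of the threshold or stayed close. With a fold enrichment of 5 or more, 497 and 173 members remained in replicates 1 and 2, of which 31.0% and 89.0% were shared, in 491 genes in either list and 135 in both. Under that limit the GGAC difference from internal-exon peaks was 3.40 and 6.97 points (adjusted p = 0.295 and 0.266 by Fisher's exact test), the shared-against-unshared difference was 6.49 points in replicate 1 and turned to -2.12 in replicate 2, the within-gene log2 difference of replicate 2 was -0.17 and lost its call (exact p = 0.065), and the pooled splice-site ratio of replicate 1 was 1.73. The GGAC difference from internal-exon peaks in replicate 1 also lost its call at q of 1e-05 or less (3.16 points), on the Ensembl canonical transcript (3.59 points) and with a motif window of 25 nt (2.12 points, and 4.21 in replicate 2). The shared-against-unshared difference of replicate 1 lost its call at 5-fold or more (adjusted p = 0.295 by Fisher's exact test), with the peak midpoint (5.02 points) and with the 25 nt window (4.38 points). The shared share was 38.1% and 80.8% with an overlap of 50% of both peaks, and 38.0% and 79.6% with summits within 100 bp. The pooled splice-site ratio of replicate 1 was 1.72 with the midpoint and 1.71 within 150 nt. Chosen after seeing the data, weighing each member's own exon once turned the ratios to 0.748 and 0.690, as a long exon then counts no more than a short one, and genes with 1 peak of each kind gave a log2 difference of -0.056 in replicate 1. The causes of the other changes were not tested, although the stricter limits leave fewer peaks. The paired motif difference kept its call in both replicates under all its alternatives. Each list alone gave 478 to 1017 genes. No paired analysis was possible because the input samples that share the replicate numbers have no peak list here. No sample group was large enough for the check of outlying samples, and without read numbers precision cannot be tied to depth.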
